A study of Ovis aries with 19 samples.

Results

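Liver and skeletal muscle were compared in control female sheep (Ovis aries), animals that had not been exposed to excess testosterone before birth. Of the 19 RNA-seq libraries of the series, 9 were from control animals and entered the comparison: 4 of liver, from sheep 98, 131, 179 and 201, and 5 of muscle, from the same sheep and sheep 132. The libraries were chosen by their tissue and treatment labels, and 4 animals gave both tissues. Each library was a separate animal within its tissue. The sources used here do not give age, breed or the muscle sampled. The other 10 libraries, 5 of liver and 5 of muscle, came from sheep treated with testosterone before birth and are used in 1 comparison near the end. Each library carries a number in the labels, and the numbers of the liver and muscle libraries form separate series. The labels do not say what these numbers count, and the tissue and any difference in the handling of its libraries cannot be told apart.

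Liver and muscle divide the handling of fuel between them. The hepatocyte makes most plasma proteins, turns nitrogen into urea, makes bile acids and releases glucose and ketone bodies, whereas the muscle fibre contracts, stores glycogen for its own use and burns glucose, fatty acids and ketone bodies. In ruminants little glucose is absorbed from the gut, so the liver makes glucose almost all the time, mainly from propionate, and fat is made from acetate in tissues other than liver. Many steps present in both organs are run by different genes of a family, each with its own control. A sample of tissue also holds blood vessels, connective tissue, fat, nerve and immune cells. Because whole tissue was sequenced, fewer cells of a type and less RNA per cell cannot be told apart.

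The liver libraries held 10325699 to 16046301 reads and the muscle libraries 8455563 to 12760690. Levels are given as CPM, read counts scaled to a fixed library total, after all 9 libraries were scaled together by the trimmed mean of M-values (TMM), and each gene is compared only with itself between tissues. Where values are listed per library, those of liver run in the order of sheep 98, 131, 179 and 201 and those of muscle in the order of sheep 98, 131, 132, 179 and 201. The 10 most abundant genes took 23.8% to 31.5% of the reads of a liver library and 18.3% to 20.1% of a muscle library. The liver library of sheep 201 stood apart by its 20704 genes with a read, against 17930 to 18289 in the other livers. Of its genes, 2158 had no read in any other control liver, and they held 0.0409% of its reads. The liver library of sheep 179 widened the spread among livers: the median SD of the log2 level over genes at 10 CPM or more was 0.45 with it and 0.30 without it. Without sheep 201 the liver libraries gave 4804 genes higher in liver and 4585 higher in muscle, and without sheep 179 they gave 5095 and 4895, against 4953 and 4663 with all libraries.

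The 4 genes that mark the tissues went with the labels in each library. ALB, which encodes albumin, stood at 31375, 46477, 75010.5 and 25708 CPM in liver and at 0.0792, 1.30, 0, 0 and 0 CPM in muscle. APOA1, the main protein of high-density lipoprotein, stood at 1773, 1785, 1522 and 2234 CPM in liver and at 1.58, 0.951, 0.979, 2.16 and 0.328 CPM in muscle. The lowest liver library was therefore far above the highest muscle library for both genes. ACTA1, the actin of skeletal muscle fibres, stood at 24286, 21566, 21654, 23038 and 19926 CPM in muscle and at 0, 0.0903, 0.830 and 0.421 CPM in liver. CKM, the creatine kinase of muscle, stood at 15190.1, 11828, 15589, 17584 and 12264 CPM in muscle and at 0, 0, 0.226 and 0.211 CPM in liver. Genes of the other tissue were uneven among libraries for some single genes, while the summed levels of whole groups ran in another order. The 27 plasma protein genes summed to 58.0, 71.6, 62.8, 69.6 and 85.9 CPM in muscle, highest in sheep 201. The 28 genes of the sarcomere and Z disc summed to 143, 127, 100 and 155 CPM in liver, lowest in sheep 179. Much of this sum came from MYOM3, CRYAB, TMOD4 and DES, with liver means of 54.8, 19.8, 18.0 and 15.8 CPM. Its order therefore cannot be read as that of traces of muscle. ALB, FGA and FGG, genes of abundant plasma proteins, had their highest muscle value in sheep 131, at 1.30, 0.518 and 1.12 CPM, and MYH1, the heavy chain of fast myosin, had its highest liver values in sheep 179 and 201, at 3.24 and 0.842 CPM against 0 in the other 2 livers.

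**Figure D1:**
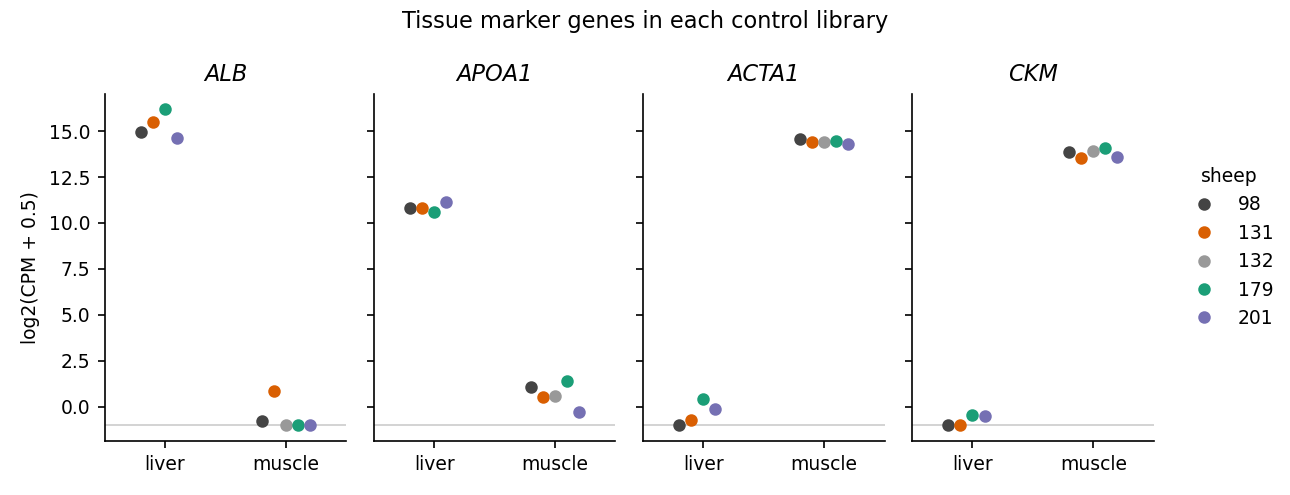
Level of 4 tissue marker genes in the 9 control libraries, as log2(CPM + 0.5) on the vertical axis, with liver and muscle side by side and each point coloured by sheep. The grey line marks 0 reads. The markers of liver (ALB, APOA1) lie above 10 in each liver library and below 2 in each muscle library, and those of muscle (ACTA1, CKM) the other way round.

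Most of the genes tested differed between the tissues. Of 13842 genes with a mean of at least 1 CPM over the 9 libraries, 9616 (69.5%) were called by limma at a Benjamini-Hochberg adjusted p under 0.05, 4953 (35.8%) higher in liver and 4663 (33.7%) higher in muscle. A difference of at least 4-fold besides was called for 2367 genes (17.1%) in liver and for 1635 (11.8%) in muscle. The libraries of the tissues did not overlap for 8275 genes (59.8%). Counts for the gene groups below are to be read against these shares. The median log2 difference over all genes tested, liver minus muscle, was 0.03. Of the genes tested, 4226 were not called, and for 3168 (22.9%) the 95% interval lay within a 2-fold difference in either direction.

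Liver held more genes that were silent, or nearly so, in the other tissue. At least 10 CPM in liver with under 0.1 CPM in muscle was found for 363 genes, of which 190 had no read in the 5 muscle libraries. The reverse was found for 80 genes, of which 19 had no read in the 4 liver libraries. At least 1 CPM was reached by 13515 genes in liver and 12460 in muscle, and by 11369 in both. Of 313 long non-coding RNA genes tested, 142 were higher in liver and 93 higher in muscle (75.1% called). Of 12348 protein-coding genes, 4333 were higher in liver and 4239 higher in muscle (69.4% called). The difference between the shares was not tested.

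**Figure D2:**
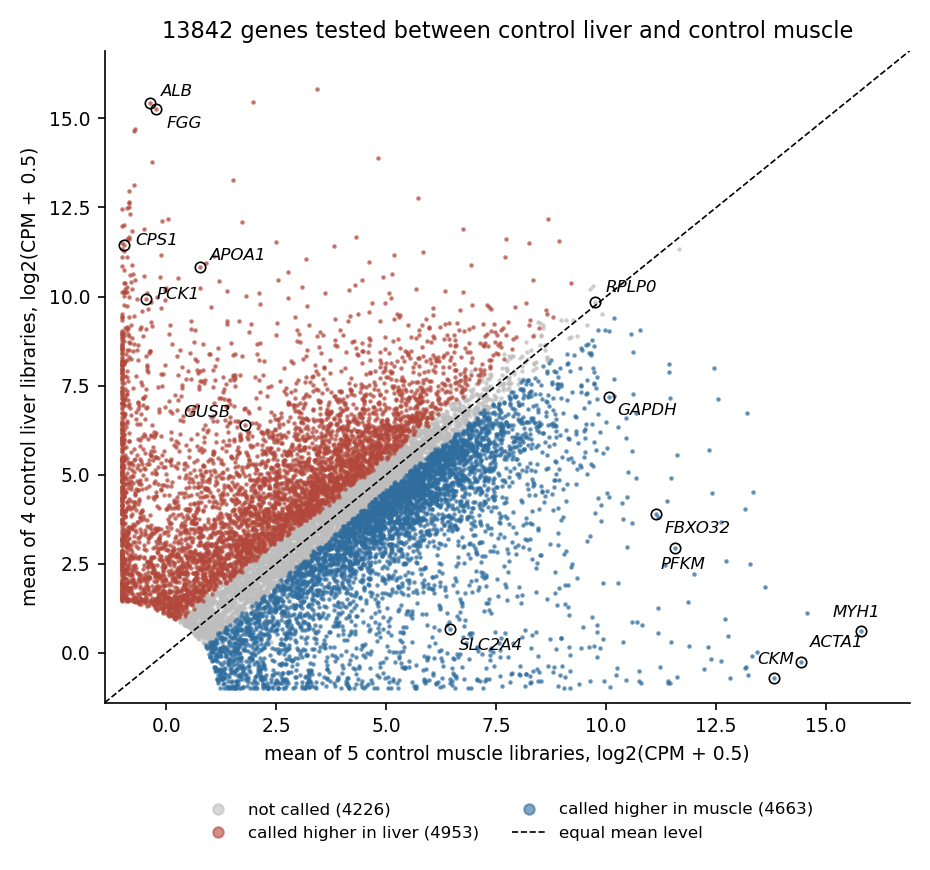
Mean level of each of 13842 genes in the 4 control livers (vertical axis) and the 5 control muscles (horizontal axis), both as log2(CPM + 0.5). Genes called by limma are red (4953, higher in liver) or blue (4663, higher in muscle), the 4226 others are grey, and the dashed line marks equal means. Genes with no reads in muscle form the column at the left edge, which has no match of the same density along the lower edge.

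Among genes with a symbol, the largest differences toward liver were those of plasma protein genes. The differences of 8 identifiers without a symbol were as large as those of the 10 genes at the top, among them LOC101102413, which took the largest share of liver reads, 5.45% ± 1.56 (SD, n = 4). ALB differed by 15.91 ± 0.39 (SE) on the log2(CPM + 0.5) scale, with a limma adjusted p of 1.61e-13. FGA and FGG, the alpha and gamma chains of fibrinogen, differed by 15.39 ± 0.27 (SE) and 15.60 ± 0.37 (SE). FGA was 247667-fold higher in liver by the ratio of means, and its muscle reads all came from sheep 131. AMBP, the precursor of alpha-1-microglobulin and bikunin, stood at 4975, 5629.7, 6934 and 4943 CPM in liver and had no read in muscle, so it was at least 103475-fold higher when 3 reads over the 5 muscle libraries are taken as the floor. The same floor gave at least 74090.4-fold for LECT2, a chemotactic protein secreted by hepatocytes, and at least 47668-fold for C9, a terminal component of complement that stood below the 10 largest. LECT2 varied widely, at 2060.5, 4526, 8080 and 1430.3 CPM in liver, while C9 ran from 1967 to 3403 CPM. ORM1, which encodes the acute-phase protein orosomucoid, had the largest spread of the log2 level of the 10 genes, at 9406, 5189.7, 4598 and 1056 CPM. Its log2 difference of 12.79 became 13.43 without the low liver library of sheep 201. GC, the vitamin D binding protein, APOH, a phospholipid-binding plasma protein, VTN, or vitronectin, and FGB, the beta chain of fibrinogen, were among the 10 largest as well, with log2 differences of 13.36, 12.94, 12.59 and 13.50.

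The largest differences toward muscle were those of the contractile apparatus and its energy supply. MYH1, the heavy chain of type IIx fast myosin, stood at 62701, 48907, 57716, 62555 and 53304 CPM in muscle and differed by -15.71 ± 0.47 (SE), which became -16.35 without the liver library of sheep 179. ACTA1 and CKM differed by -14.80 ± 0.26 (SE) and -14.55 ± 0.20 (SE), with limma adjusted p-values of 5.77e-15 and 1.54e-15. MYLPF, the regulatory light chain of fast myosin, was 64823-fold higher in muscle by the ratio of means and TNNC2, the calcium-binding troponin of fast fibres, 36672-fold. TTN, the giant elastic protein titin, stood at 27132, 26794, 20897, 22377 and 24531 CPM in muscle and at 0.186, 0.903, 1.58 and 4.00 CPM in liver. MB, the oxygen store myoglobin, ATP2A1, the calcium pump of fast fibres, TNNT3, the fast tropomyosin-binding troponin, and MYH2, the heavy chain of type IIa myosin, completed the 10 largest, with log2 differences of -13.62, -13.57, -13.42 and -13.42. Of these 10 genes MYH2 had the largest spread of the log2 level among muscles, at 9891, 9982, 3044, 5377 and 7547 CPM.

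Since a gene nearly silent in 1 tissue passes the filter through the other and then has to differ, the counts for groups restricted to 1 tissue describe the libraries and are given with the number of genes at 1 CPM or more in both tissues. Of 28 plasma protein genes, 27 were tested and 27 were called higher in liver, with a median log2 difference of 11.998, and 5 reached 1 CPM in both tissues. As a share of reads they took 21.2% ± 2.19 (SD, n = 4) of the liver libraries and 0.00726% ± 0.00129 (SD, n = 5) of the muscle libraries. Of 30 complement and clotting genes tested, 29 were higher in liver, with a median of 8.76. C3, the central complement protein, stood at 16111, 13024, 12951 and 18831 CPM in liver and 24.7, 27.9, 31.7, 25.6 and 27.6 CPM in muscle. F13A1, the catalytic chain of clotting factor XIII, which macrophages and platelets make, was the exception: it stood at 2.24, 0.812, 1.43 and 0.211 CPM in liver and 12.4, 15.7, 33.7, 8.26 and 7.65 CPM in muscle, 13.3-fold higher in muscle (limma adjusted p = 1.79e-05). The libraries of the tissues did not overlap for F13A1.

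Of 18 apolipoproteins and their partners, 15 were tested, 13 were higher in liver and 1 higher in muscle, with a median of 8.16. APOC3, an inhibitor of lipoprotein lipase, stood at 1532, 2560, 3308 and 2576 CPM in liver and had 1 read in muscle, a ratio of 134231 whose 95% counting interval ran from 24091 to 5301900. APOE, the ligand for uptake of remnant particles, was 200-fold higher in liver and varied there from 1155 to 3803 CPM, lowest in sheep 179. APOD, a lipocalin made by many connective tissue cells, went the other way, at 113, 94.7, 166, 129 and 128 CPM in muscle and 9.63, 5.05, 9.96 and 25.7 CPM in liver, a log2 difference of -3.48 ± 0.35 (SE).

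The enzymes that clear nitrogen were higher in liver except the one that fixes ammonia as glutamine. Of 10 genes of the urea cycle and its supply, 9 were higher in liver and 1 in muscle, and 5 reached 1 CPM in both tissues. CPS1, which makes carbamoyl phosphate from ammonia, stood at 2994, 1936, 2401 and 3775 CPM in liver and had 1 read in muscle, a ratio of 151916 with a counting interval of 27266 to 6000400. OTC, which joins carbamoyl phosphate to ornithine, stood at 265, 254, 311 and 176 CPM in liver with no read in muscle, at least 4625-fold higher. ARG1, the arginase that releases urea, stood at 210.1, 192, 552 and 489 CPM in liver and 0, 0.0864, 0.0890, 0.0939 and 0 CPM in muscle, so the livers of sheep 179 and 201 were above those of sheep 98 and 131. ASS1, which makes argininosuccinate, kept a muscle level of 22.0, 12.4, 23.1, 45.2 and 22.6 CPM and was 36.1-fold higher in liver. GLUL, glutamine synthetase, stood at 2198, 1132, 1032, 1229 and 2191 CPM in muscle and 433, 405, 308 and 239 CPM in liver, 4.50-fold higher in muscle with a log2 difference of -2.13 ± 0.29 (SE) (limma adjusted p = 1.31e-05). The lowest muscle was above the highest liver for GLUL.

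Glucose-making enzymes were far higher in liver, and the alanine aminotransferases were higher in muscle. Of 10 genes in this group, 7 were higher in liver, 2 were higher in muscle and 1 was not called. PC, which carboxylates pyruvate, stood at 1161, 826, 610.5 and 1829 CPM in liver and 13.7, 12.2, 13.7, 7.60 and 10.8 CPM in muscle, 95.3-fold apart. PCK1, the cytosolic phosphoenolpyruvate carboxykinase, stood at 829.7, 707, 943 and 1436 CPM in liver and at most 0.432 CPM in muscle, and G6PC1, the catalytic subunit of glucose-6-phosphatase that frees glucose, at 282, 174, 315 and 337 CPM with no read in muscle, at least 5101-fold higher. The liver of sheep 201 was the highest of the 4 for PC, PCK1 and G6PC1. GPT, an alanine aminotransferase that in ruminants is not taken as a liver enzyme in blood tests, stood at 48.3, 57.3, 28.5, 39.2 and 33.4 CPM in muscle and 1.06, 0.722, 0.377 and 1.79 CPM in liver, 41.9-fold higher in muscle (limma adjusted p = 2.90e-09). GPT2, the mitochondrial form, was higher in muscle too, with a log2 difference of -1.98 ± 0.42 (SE). PPARGC1A, a coactivator that switches on glucose output in liver and mitochondria in muscle, was not called: it stood at 26.3, 24.1, 37.7 and 23.2 CPM in liver and 25.4, 54.7, 22.2, 34.1 and 11.5 CPM in muscle, with a 95% interval of the log2 difference of -0.69 to 0.81.

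Enzymes that break down amino acids were called higher in liver for 25 of 26 genes, with a median of 7.68. TDO2, the first enzyme of tryptophan breakdown, was 7408-fold higher in liver and HGD, homogentisate dioxygenase of the tyrosine pathway, 3206-fold. TAT, tyrosine aminotransferase, stood at 484, 258, 490.4 and 456 CPM in liver, with the library of sheep 131 apart below the other 3. AASS, the first enzyme of lysine breakdown, was the 1 gene higher in muscle, by a small margin: 8.48, 12.6, 9.79, 8.35 and 9.40 CPM against 8.58, 4.96, 6.71 and 5.05 CPM in liver. Its log2 difference of -0.60 had a limma adjusted p of 0.0306, which became 0.0764 with the sheep as a block, and the call was also lost without any 1 of liver 131, liver 201, muscle 131, muscle 132 or muscle 201.

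Genes of bile acid formation and drug metabolism were likewise liver genes. Of 13 bile acid genes, 8 were tested and 8 were higher in liver. AKR1D1, the steroid 5-beta-reductase, stood at 248, 594, 562 and 259 CPM with no read in muscle, at least 7658-fold higher, and ABCB11, the bile salt export pump, was 1272-fold higher. CYP2E1, a cytochrome P450 that oxidises small molecules such as ethanol, stood at 2415, 3915, 2268 and 4435 CPM in liver, and CYP3A24, a cytochrome P450 of drug metabolism, at 1026, 2370.5, 1299.8 and 719 CPM. NQO1, a quinone reductase, was the 1 of 12 drug metabolism genes higher in muscle, with a log2 difference of -1.06 ± 0.25 (SE) (limma adjusted p = 0.00187). Of the transcription factors known from hepatocytes, 20 of 21 were higher in liver. HNF4A, a nuclear receptor that keeps hepatocyte identity, stood at 491, 274, 188 and 400.3 CPM in liver and 0.0890 to 0.432 CPM in muscle, and CREB3L3, a factor of the fasting response, at 646, 556, 494 and 496 CPM in liver. CEBPB, a factor of the acute phase found in many cells, was 4.14-fold higher in muscle.

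**Figure D3:**
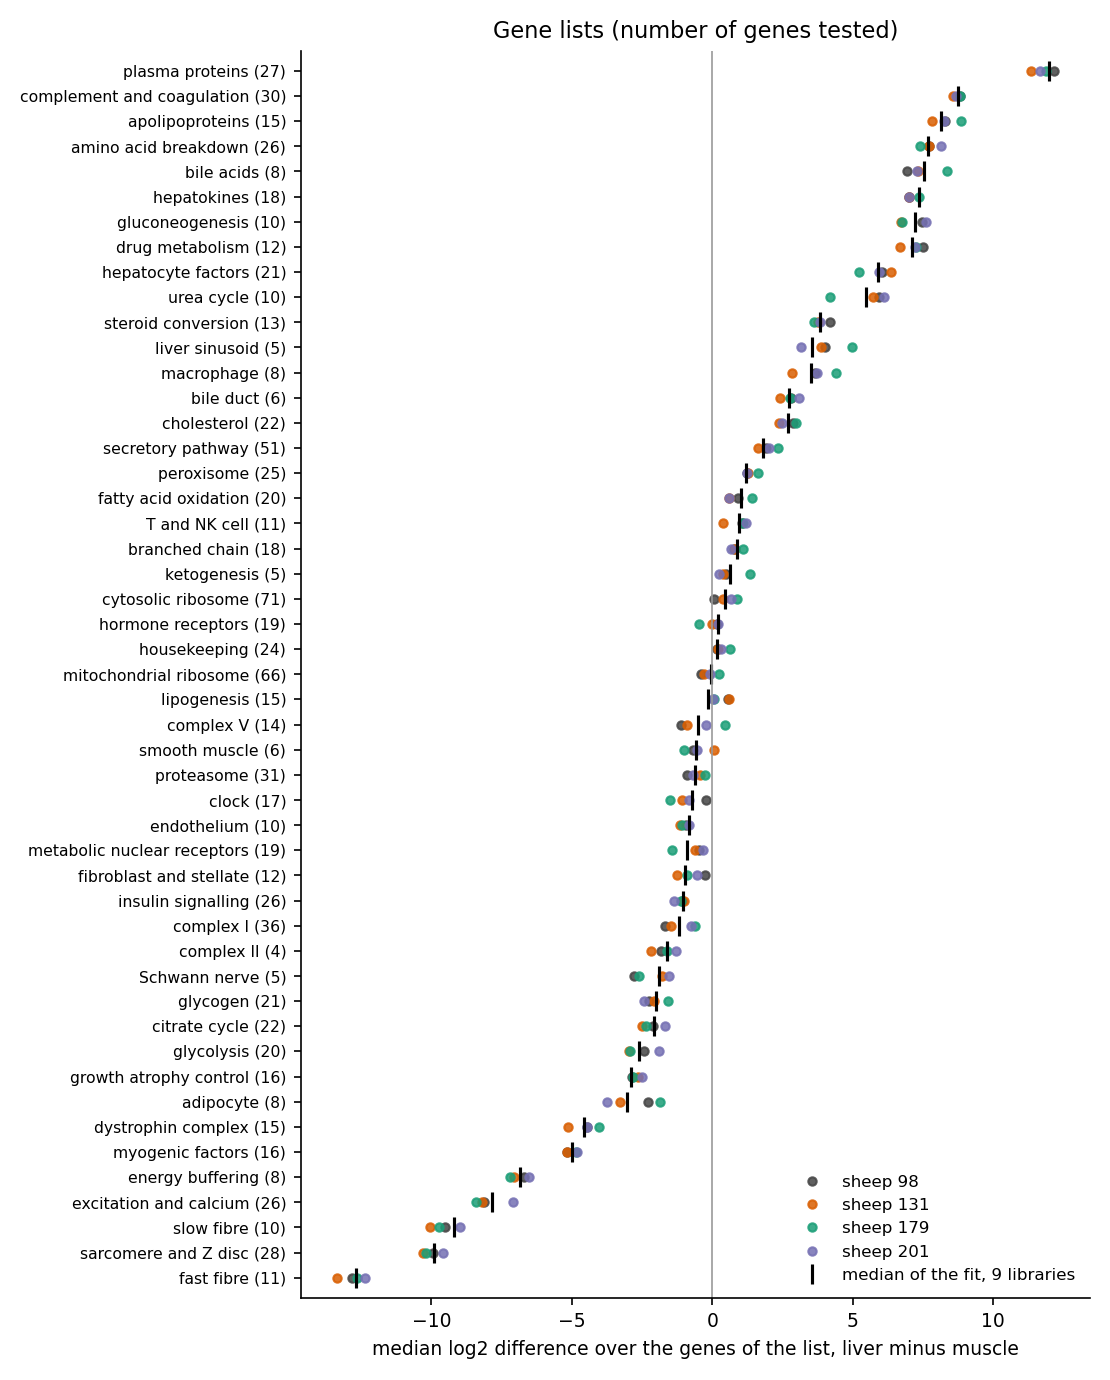
Median log2 difference, liver minus muscle, over the tested genes of each group (number in brackets). Coloured points are the medians within each of the 4 sheep with both tissues and the black bars the medians from the fit of all 9 libraries. The groups run from -12.70 for genes of fast fibres to 11.998 for plasma proteins, and the points of the 4 sheep lie close together against that range.

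Muscle genes formed the mirror image. Of 12 genes listed for fast fibres, 11 were tested and 11 were higher in muscle (median log2 difference -12.70). For slow fibres 10 of 11 were tested and 10 were higher in muscle (-9.20), and for the sarcomere and its Z disc 28 of 28 (-9.92). Fast fibre genes took 12.3% ± 0.742 (SD, n = 5) of muscle reads, slow fibre genes 2.08% ± 0.598 (SD, n = 5) and sarcomere genes 10.99% ± 0.620 (SD, n = 5). The 10 slow fibre genes tested held no myosin heavy chain, and MYBPC1 alone took 1.29% ± 0.339 (SD, n = 5) of muscle reads. Among fast fibre genes the heavy chain MYH1 alone took 5.94% ± 0.662 (SD, n = 5). The shares of the fast and slow groups thus do not measure the fibres of each type. NEB, or nebulin, which runs along the thin filament, was 1938-fold higher in muscle and kept 5.13 ± 1.05 (SD, n = 4) CPM in liver. MYBPC1, a myosin-binding protein listed for slow fibres, was 4035-fold higher.

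The summed level of slow fibre genes varied among the muscles more than that of fast fibre genes. MYBPC1 had the highest mean of the slow fibre genes, at 12488 ± 3641 (SD, n = 5) CPM. The slow fibre sum was 20638, 28449.7, 10698, 22083 and 19207 CPM, highest in sheep 131 and lowest in sheep 132. That of fast fibre genes ran only from 106209 to 125742 CPM. TNNC1, the troponin C of slow fibres, was also highest in sheep 131 and lowest in sheep 132, at 1222, 3027, 1028, 1851 and 1504 CPM. So was MYL2, the regulatory light chain of slow myosin, at 2086, 4459, 1609, 2978 and 2918 CPM. The summed level of 37 complex I genes of the respiratory chain was 5313, 6456, 4061, 5002 and 4214 CPM in the same 5 muscles, again highest in sheep 131 and lowest in sheep 132. PVALB, the calcium buffer parvalbumin of the fastest fibres, split the muscles differently, at 26.7, 1.73, 24.2, 22.7 and 1.20 CPM, with sheep 131 and 201 low and the other 3 high. These values describe 5 animals and were not tested.

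Genes that couple excitation to calcium release were higher in muscle for 25 of 26 tested. RYR1, the calcium release channel, stood at 8281, 6250, 5629, 6832 and 6186 CPM in muscle and 0.186, 0.542, 1.13 and 3.79 CPM in liver, where sheep 201 was highest. CHRNE, the epsilon subunit of the adult acetylcholine receptor, was the gene not called, at 42.0, 25.1, 11.1, 26.2 and 13.6 CPM in muscle and 19.8, 16.4, 9.88 and 23.1 CPM in liver. The sources used here do not state the strand of counting, so reads of CHRNE and of genes overlapping it cannot be told apart. Of the myogenic factors, 16 of 20 were tested and 16 were higher in muscle. MEF2C, a transcription factor of muscle and endothelium, was 33.7-fold higher, and SMYD1, a methyltransferase of sarcomere assembly, 1833-fold. In the dystrophin complex, 14 of 15 genes were higher in muscle, such as SGCB, or beta-sarcoglycan, at 14.8-fold. UTRN, or utrophin, the widely expressed relative of dystrophin, was higher in liver, at 54.0, 58.4, 80.7 and 70.7 CPM against 31.5, 26.8, 25.8, 35.0 and 25.2 CPM in muscle (limma adjusted p = 7.43e-05).

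Genes that set muscle mass were mostly higher in muscle, 13 of 16, with 1 higher in liver. FBXO32 and TRIM63, ubiquitin ligases that mark muscle proteins for breakdown, stood at 2110.3, 1457, 1734, 2107 and 3816 and 710, 391, 729.9, 601 and 1551 CPM in muscle. The muscle of sheep 201 was the highest for both. FBXO32 was 157-fold higher in muscle, and TRIM63 had 3 reads in liver. MSTN, or myostatin, which limits muscle growth, stood at 42.5, 35.1, 84.1, 75.7 and 59.2 CPM in muscle and 0 to 0.151 CPM in liver. INHBA, which encodes a subunit of activin, another ligand of the same receptors, was higher in liver, at 32.9, 41.2, 70.7 and 14.1 CPM against 0.317, 1.04, 0.445, 1.13 and 0.546 CPM.

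Related genes listed for the same step in liver and in muscle mostly differed in opposite directions. The genes of a pair were not compared with each other within a tissue, so which of them prevails there was not measured. Of 24 pairs listed, both members were tested in 19. The form listed for muscle was called higher in muscle in 19 of 19 pairs. The form listed for liver was called higher in liver in 18 of 19. Some liver forms differed little, with log2 differences of -0.21 for ACACA (not called), 0.57 for PHKG2 and 1.11 for PGAM1. The difference between both log2 differences was above 0 in each of the 4 sheep with both tissues for 19 of 19 pairs. The pairs were listed from textbook knowledge of these tissues and with earlier results of these data known, so the direction is not independent evidence.

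The glycogen pairs differed widely in how far apart their forms stood. PYGM, the muscle glycogen phosphorylase, stood at 8626, 5963, 7097, 7382 and 5733 CPM in muscle and 0.746, 0.361, 1.28 and 1.16 CPM in liver, and PYGL, the liver form, at 323, 271, 278 and 314 CPM in liver and 12.6 ± 2.18 (SD, n = 5) CPM in muscle. GYS1 and GYS2, the muscle and liver glycogen synthases, differed by -5.03 ± 0.26 (SE) and 7.76 ± 0.25 (SE). PPP1R3A and PPP1R3B, which bring protein phosphatase 1 to glycogen, differed by -10.76 ± 0.21 (SE) and 4.06 ± 0.36 (SE). The liver forms PYGL and PPP1R3B thus kept a measurable level in muscle, while PYGM and PPP1R3A were near 0 in liver. The subunits of phosphorylase kinase were closer, with PHKA1 and PHKA2, its regulatory alpha subunits, at -6.19 ± 0.19 (SE) and 3.17 ± 0.25 (SE) and PHKG1 and PHKG2, its catalytic subunits, at -4.47 ± 0.21 (SE) and 0.57 ± 0.24 (SE). The call of PHKG2 (limma adjusted p = 0.0492) was lost with the sheep as a block (0.0520), with library totals (0.176), with upper quartiles (0.0818), with a smaller pseudocount (0.0521) and without any 1 library other than liver 179. Over the whole group of 21 glycogen genes, 12 were higher in muscle and 6 in liver.

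Glycolysis genes were split in the same manner, with 12 of 20 higher in muscle and 7 higher in liver. PFKM, the muscle phosphofructokinase, was 420.3-fold higher in muscle and PFKL, the liver form, 3.04-fold higher in liver. ALDOA, the muscle aldolase, stood at 10068, 9454, 9659, 10503 and 7528 CPM in muscle and was 88.6-fold higher there. ENO3 and PGAM2, the muscle enolase and phosphoglycerate mutase, were 510.4-fold and 4942-fold higher in muscle, while ENO1 and PGAM1 were 4.93-fold and 2.20-fold higher in liver. PKM, the muscle pyruvate kinase, stood at 2105, 1943, 1413, 1468 and 701 CPM in muscle, lowest in sheep 201. PKLR, the pyruvate kinase of liver and red cells, stood at 39.2, 50.8, 17.0 and 31.5 CPM in liver and was 405-fold higher there. LDHA, the lactate dehydrogenase subunit that favours lactate formation, stood at 2406, 2768, 2477, 2508 and 1475 CPM in muscle and 9.26, 10.9, 21.3 and 12.9 CPM in liver. LDHB, which favours lactate use, stood at 424, 462, 697 and 545 CPM in liver and 81.9, 144, 61.0, 115 and 98.9 CPM in muscle. LDHA was 171-fold higher in muscle and LDHB 5.32-fold higher in liver, and neither overlapped.

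Genes of glucose transport and metabolism differed too. HK2, the hexokinase of muscle, stood at 18.8, 18.1, 25.5, 23.7 and 8.52 CPM in muscle and 0.124, 0.361, 0.226 and 0.211 CPM in liver. SLC2A4, the insulin-responsive glucose transporter, stood at 108, 139.6, 82.5, 54.7 and 52.5 CPM in muscle and was 80.1-fold higher there. SLC2A2, the bidirectional glucose transporter of liver, stood at 112, 41.0, 77.9 and 16.6 CPM in liver, spread from low in sheep 201 to high in sheep 98, and had no read in muscle. FBP1 and FBP2, the liver and muscle fructose-1,6-bisphosphatases, were 551-fold higher in liver and 106-fold higher in muscle.

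**Figure D4:**
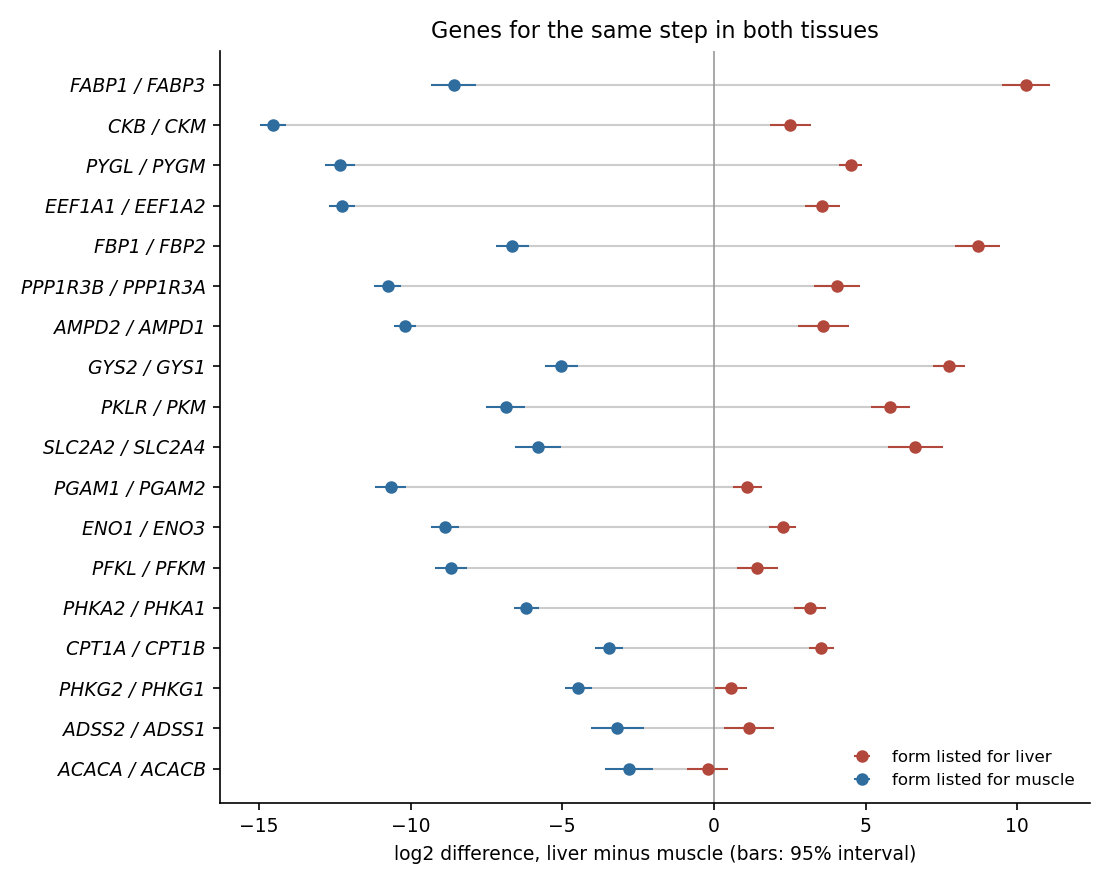
Log2 difference, liver minus muscle, of both genes of 18 of the 19 pairs that serve the same step, with 95% intervals from limma. Red points are the form listed for liver and blue points the form listed for muscle. The blue points lie left of 0 in each pair shown, and the red points lie right of 0 in each but ACACA, whose interval spans 0.

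Paired genes of fat handling differed too. CPT1A and CPT1B, the liver and muscle forms of the enzyme that admits fatty acids to mitochondria, differed by 3.54 ± 0.19 (SE) and -3.47 ± 0.22 (SE). FABP1 stood at 906, 1026, 2135 and 362 CPM in liver and FABP3 at 435, 1022, 298, 251 and 325 CPM in muscle. They encode the fatty acid carriers of liver and of heart and skeletal muscle. Sheep 201 had the lowest liver FABP1 and sheep 131 the highest muscle FABP3. EEF1A1 and EEF1A2, the general and the muscle and nerve forms of elongation factor 1-alpha, differed by 3.58 ± 0.27 (SE) and -12.27 ± 0.19 (SE). Reads of EEF1A1 may be shared with near-identical copies, so its level is uncertain.

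Of 15 genes of fat synthesis, 7 were higher in liver, 6 were higher in muscle and 2 were not called. Of all genes tested 35.8% were higher in liver and 33.7% higher in muscle, so a split of this kind is not particular to the group. FASN, fatty acid synthase, stood at 9.51, 3.61, 2.04 and 3.58 CPM in liver and 29.0, 21.6, 21.5, 20.2 and 23.6 CPM in muscle, 4.95-fold higher in muscle with a log2 difference of -2.37 ± 0.32 (SE) (limma adjusted p = 1.47e-05). ACSS2, which turns acetate into acetyl-CoA, stood at 24.2 ± 6.04 (SD, n = 4) CPM in liver and 138 ± 16.7 (SD, n = 5) CPM in muscle, and ME1, malic enzyme, was 5.06-fold higher in muscle. The tissues did not overlap for these 3 genes. ACLY, which makes acetyl-CoA from citrate, and ACACA, the acetyl-CoA carboxylase of fat synthesis, were not called. ACLY stood at 19.1, 16.2, 15.5 and 12.3 CPM in liver and 16.8, 10.6, 22.9, 14.7 and 25.7 CPM in muscle, with a 95% interval of the log2 difference of -0.70 to 0.41, and the interval of ACACA was -0.88 to 0.47. ACACB, the carboxylase form that restrains fatty acid entry to mitochondria, was 6.21-fold higher in muscle, with 1 liver, of sheep 98, above the other 3 at 121, 35.8, 32.7 and 35.8 CPM. MLXIPL, a carbohydrate-sensing transcription factor that drives pyruvate kinase and fat synthesis genes, was 111-fold higher in liver. The desaturases and elongases FADS1, FADS2, ELOVL2, ELOVL5 and ELOVL6 were called higher in liver as well.

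Most markers of fat cells tested were also higher in muscle. The summed level of 9 adipocyte genes was 236 to 358 CPM in muscle and 32.1 to 57.0 CPM in liver, and of 8 tested, 5 were higher in muscle and 2, CIDEA and CIDEC, in liver. ADIPOQ, the adipocyte hormone adiponectin, stood at 5.31, 19.8, 26.1, 6.76 and 28.5 CPM in muscle and had no read in liver. PLIN4, a lipid droplet protein of fat and muscle cells, stood at 122, 102, 57.0, 92.1 and 96.2 CPM in muscle and had no read in liver either. PLIN1, the main droplet protein of fat cells, was not called, at 2.46, 2.94, 7.74, 1.69 and 10.4 CPM in muscle and 1.49, 3.25, 1.66 and 6.53 CPM in liver. LPL, lipoprotein lipase, made by fat and muscle cells, was 24.9-fold higher in muscle, and highest in sheep 131. The part of fat cells in the levels of FASN, ACSS2 and ME1 was not tested.

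Of 5 genes of ketone body metabolism, 3 were higher in liver and 2, OXCT1 and BDH1, were higher in muscle. OXCT1, which is needed to use ketone bodies, stood at 314, 376, 298, 244 and 356 CPM in muscle and 5.41, 5.42, 6.79 and 5.16 CPM in liver, 55.8-fold higher in muscle. BDH1, the mitochondrial enzyme that interconverts acetoacetate and beta-hydroxybutyrate, was low in both tissues, at 0.186, 0.271, 0 and 0.105 CPM in liver and 2.06, 6.14, 3.56, 0.845 and 5.46 CPM in muscle, with a log2 difference of -2.48 ± 0.42 (SE) (limma adjusted p = 1.09e-04). The liver libraries held 7 reads of BDH1 in all, and the lowest muscle was above the highest liver.

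Genes of the citrate cycle and of complexes I and II of the respiratory chain were mostly higher in muscle, with medians nearer 0 than those of the contractile genes. Of 22 citrate cycle genes, each of which reached 1 CPM in both tissues, 20 were higher in muscle and 1 in liver, with a median of -2.06 against 0.03 for all genes. PDHA1, a subunit of pyruvate dehydrogenase, was 17.1-fold higher in muscle. SUCLG2, the GTP-forming subunit of succinyl-CoA synthetase, was the 1 gene higher in liver, at 392, 534, 1024 and 419 CPM against 268, 363, 247, 338 and 303 CPM (limma adjusted p = 0.0108). Complex I of the respiratory chain had 26 of 36 genes higher in muscle and 10 not called (median -1.18), complex II 4 of 4 (-1.61), and complex V 5 of 14 with 9 not called (-0.51). The share for complex V was near the 33.7% of all genes, and its median within a sheep ran from -1.11 to 0.46. No gene of complex V was called higher in liver, against 35.8% of all genes. NDUFS1, the largest subunit of complex I, was 5.13-fold higher in muscle, and SDHA, the flavoprotein of complex II, 4.76-fold. Complexes III and IV and the genes of the mitochondrial genome are not analysed here.

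Of 20 genes of fatty acid oxidation, 11 were higher in liver, 6 were higher in muscle and 3 were not called, against 35.8% and 33.7% of all genes in each direction. Peroxisome genes favoured liver, 18 of 25. EHHADH, the bifunctional enzyme of peroxisomal oxidation, was 22.1-fold higher in liver and CAT, or catalase, 9.60-fold. Cholesterol synthesis genes were higher in liver for 19 of 22. MSMO1, a sterol demethylase, was 41.7-fold higher in liver, and FDFT1, squalene synthase, was the 1 gene of the pathway higher in muscle, at 279, 193, 272, 236 and 360.4 CPM against 91.1, 97.5, 90.7 and 93.5 CPM (limma adjusted p = 9.96e-06).

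Steroid receptors, of interest because the series concerns testosterone, were measured in both tissues. ESR1, estrogen receptor alpha, stood at 152, 140.2, 198 and 135 CPM in liver and 47.8, 59.1, 46.3, 63.9 and 33.2 CPM in muscle, 3.12-fold higher in liver (limma adjusted p = 9.95e-06), without overlap. PGR, the progesterone receptor, had 1 read in liver and stood at 0.951, 1.04, 0.445, 1.13 and 0.874 CPM in muscle, under the limit for the test. NR3C1, the glucocorticoid receptor, was 1.94-fold higher in muscle.

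Genes that make, convert or bind steroids were mainly liver genes, 12 of 13 tested, with a median of 3.82. HSD11B1, which regenerates active glucocorticoid, was 284-fold higher in liver, at 855, 1055, 1733 and 707 CPM. HSD17B11, an oxidising 17-beta-hydroxysteroid dehydrogenase, was 342-fold higher. SRD5A1, the steroid 5-alpha-reductase that makes dihydrotestosterone, stood at 16.8, 24.0, 22.7 and 25.5 CPM in liver and 6.34, 6.57, 8.54, 6.48 and 6.34 CPM in muscle, 3.25-fold higher in liver without overlap. SHBG, which carries sex steroids in plasma, stood at 95.9, 120.4, 68.4 and 94.3 CPM in liver and 4.36, 5.10, 6.14, 5.44 and 4.37 CPM in muscle. HSD17B8, the gene not called, stood within 1.04-fold in both tissues, with a 95% interval of -0.45 to 0.33.

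Of 19 hormone receptors tested, 7 were higher in liver and 8 in muscle, against 35.8% and 33.7% of all genes. GCGR, the glucagon receptor, was 73.3-fold higher in liver, and LEPR, the leptin receptor, 27.5-fold. GHR, the growth hormone receptor, varied in liver, at 285, 826, 1095 and 410.5 CPM, and stood at 314, 313, 259.7, 297 and 354 CPM in muscle. Its log2 difference of 0.90 ± 0.33 (SE) had a limma adjusted p of 0.0256, and the call was lost without any 1 of liver 131, liver 179, muscle 132 or muscle 179 and with upper-quartile scaling (0.0574). IGF1, the growth factor that liver releases under growth hormone, stood at 383, 519, 574 and 115 CPM in liver and 10.1, 8.04, 19.4, 20.7 and 10.7 CPM in muscle, and its receptor gene IGF1R at 8.70, 5.14, 11.5 and 9.47 CPM in liver and 83.5, 52.1, 87.9, 79.7 and 119 CPM in muscle. Ligand and receptor thus lay on opposite sides, IGF1 28.8-fold higher in liver and IGF1R 9.72-fold higher in muscle. IGFBP1, a binding protein that insulin represses in liver, stood at 38.0, 46.4, 80.8 and 261 CPM in liver, highest in sheep 201, where IGF1 was lowest, and had no read in muscle.

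INSR, the insulin receptor gene, was not called, at 113, 119, 133 and 132 CPM in liver and 99.0, 80.4, 89.5, 99.7 and 140.1 CPM in muscle, with a 95% interval of -0.10 to 0.72. Of 26 genes of insulin signalling, the receptor included, 21 were higher in muscle and 4, among them GSK3B, TBC1D1 and GRB14, were higher in liver. Of the 26 genes, 25 reached 1 CPM in both tissues and the median was -1.05. IRS1, a docking protein, was 1.95-fold higher in muscle, FOXO1, a transcription factor that insulin restrains, 3.37-fold, and EIF4EBP1, a brake on translation that the pathway releases, 14.1-fold. GRB10 and GRB14, related adaptors that bind the receptor and dampen its signal, took opposite sides. GRB10 stood at 341, 222, 252, 302 and 345 CPM in muscle and 35.0, 39.8, 25.4 and 45.8 CPM in liver, and GRB14 at 30.1, 73.1, 59.0 and 37.9 CPM in liver and 0.475, 1.21, 0.445, 1.03 and 0.437 CPM in muscle. Circadian clock genes were higher in muscle for 8 of 17 and not called for 8. NPAS2, a partner of the clock's activating complex, was higher in liver, 8.25-fold, and NR1D2, a repressor of the clock, was 3.68-fold higher in muscle. The sources used here do not give the hour at which tissue was taken.

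Genes for protein secretion were higher in liver for 42 of 51, with a median of 1.81, and these 51 genes reached 1 CPM in both tissues. P4HB, protein disulfide isomerase, stood at 2594, 2067, 3652 and 4133 CPM in liver and 213, 175, 232, 197 and 228 CPM in muscle. HSP90B1, a chaperone of the endoplasmic reticulum, and XBP1, a transcription factor that expands it, were 15.8-fold and 17.6-fold higher in liver. SRP68, a subunit of the signal recognition particle, was higher in muscle (1.90-fold), as was MIA3, a protein of collagen export. Proteasome genes leaned to muscle, with 18 of 31 higher there. The 1 gene higher in liver, PSMD6, had a limma adjusted p of 0.0356 and lost the call with the sheep as a block (0.0848), with library totals (0.132) and without any 1 of liver 201, muscle 131, muscle 179 or muscle 201. PSMD4, a ubiquitin receptor of the proteasome, was 4.69-fold higher in muscle. The count of proteasome genes higher in muscle became 22 with library totals as the scale.

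Of 71 cytosolic ribosomal protein genes tested, 27 were higher in liver, 3 (RPLP1, RPL4 and RPL15) were higher in muscle and 41 were not called, with a median of 0.45. The share higher in liver was near the 35.8% of all genes. The share higher in muscle was far below the 33.7% of all genes, and that not called was above 30.5%. With library totals as the scale 19 were higher in liver, and with upper quartiles 16. RPS14 stood at 300, 378, 479.6 and 427 CPM in liver and 325, 395, 442, 428 and 360.3 CPM in muscle, with a 95% interval of the log2 difference of -0.41 to 0.43. Reads of these genes may be shared with processed copies in the genome. Of 66 mitochondrial ribosomal protein genes, 7 were higher in liver, 20 were higher in muscle and 39 were not called, with a median of -0.05. The share higher in muscle was near the 33.7% of all genes, while that higher in liver was below 35.8% and that not called above 30.5%.

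Of 24 genes often used as references, 10 were higher in liver, 8 were higher in muscle and 6 were not called, a share of calls near the 69.5% of all genes. GAPDH, a glycolytic enzyme, stood at 1034, 1037, 1227, 1215 and 862 CPM in muscle and 111, 126, 149 and 197 CPM in liver, 7.38-fold higher in muscle. GUSB, a lysosomal glucuronidase, was 27.8-fold higher in liver and PPIA, cyclophilin A, 7.82-fold. The 5 smallest differences were those of B2M, POLR2A, RPLP0, SNRPD3 and PSMB2. B2M, the light chain of MHC class I, stood at 316, 290, 737 and 255 CPM in liver and 374, 376, 393, 359 and 311 CPM in muscle, with a log2 difference of 0.00 ± 0.27 (SE) and with liver 179 far above the other livers. POLR2A, the largest subunit of RNA polymerase II, and RPLP0, a ribosomal stalk protein, had 95% intervals of -0.53 to 0.51 and -0.40 to 0.53. SNRPD3, a spliceosome protein, and PSMB2, a proteasome subunit, had intervals of -0.07 to 0.68 and -0.78 to -0.01. SNRPD3 was called higher in liver without the liver of sheep 98 (limma adjusted p = 0.0410), and PSMB2 higher in muscle with library totals (0.0345), with upper-quartile scaling (0.0236) or without the liver of sheep 201 (0.0195).

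Markers of other cells in the tissue differed as well. Macrophage genes were higher in liver for 8 of 8 tested, and their summed level was 264 to 588 CPM in liver and 26.3 to 68.1 CPM in muscle. MARCO, a scavenger receptor of liver macrophages, stood at 111, 21.7, 33.7 and 69.8 CPM in liver with 1 read in muscle, and C1QA, a chain of complement C1q made by macrophages, was 17.6-fold higher in liver. Genes of liver sinusoidal endothelium were higher in liver for 5 of 5 tested. STAB2, a scavenger receptor of these cells, stood at 96.4, 45.4, 39.6 and 91.4 CPM in liver, and both MARCO and STAB2 were lower in sheep 131 and 179 than in sheep 98 and 201. Genes of endothelium in general leaned the other way, 5 of 10 higher in muscle and 1, KDR, in liver. VWF, the clotting protein of vessel walls, was 14.6-fold higher in muscle and PECAM1, an endothelial adhesion protein, 2.23-fold.

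Bile duct genes were higher in liver for 6 of 6, as with KRT19, a keratin of duct cells, at 5.35, 3.70, 3.24 and 8.53 CPM in liver. T and NK cell genes were higher in liver for 7 of 11. CD247, a chain of the T cell receptor complex, was not called at 1.24, 0.722, 1.81 and 1.16 CPM in liver and 0.872, 1.30, 1.25, 1.41 and 1.20 CPM in muscle. Of 7 B cell genes only 2 were tested, JCHAIN and CD22, and both were higher in liver. JCHAIN, the joining chain of secreted antibodies, was 9.42-fold higher there. Among the B cell genes not tested, CD79B had the higher mean in muscle. Fibroblast and stellate cell genes were higher in muscle for 6 of 12 and in liver for 1, LRAT. COL6A3, a chain of collagen VI, was 11.6-fold higher in muscle and DCN, or decorin, 2.97-fold. Of 6 smooth muscle genes, 2 were higher in liver, 2 were higher in muscle and 2 were not called, with a median of -0.59. MYH11, the smooth muscle myosin, was 3.33-fold higher in liver, and LMOD1, an actin nucleator of smooth muscle, 18.4-fold higher in muscle. Genes of red cells were not tested, since their summed level was at most 2.49 CPM in any library.

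Control livers differed from each other more than control muscles did. Among genes at 10 CPM or more in a tissue, the median SD of the log2 level was 0.45 over the 4 livers (8304 genes) and 0.20 over the 5 muscles (7558 genes). Of 6163 genes at that level in both tissues, 5283 (85.7%) had the larger SD in liver, and 86.9% did when both tissues were limited to the 4 shared sheep. The liver of sheep 179 carried much of this: without it the median SD in liver was 0.30 and the share 69.1%. An SD over 1 was found for 260 genes in liver and 43 in muscle. The largest SDs in liver were those of LOC114108618, at 584, 19.6, 195 and 1.37 CPM, LOC114115324, at 38.7, 77.2, 141 and 0.105 CPM, and ROS1, a receptor tyrosine kinase, at 53.8, 0.181, 43.1 and 32.7 CPM, with sheep 131 alone near 0. LOC114108618 and LOC114115324 are identifiers without a symbol, and LOC114108618 lost its call without liver 98 or liver 179. In muscle the largest SD was that of LOC101103165, at 135 CPM in sheep 132 and near 1 CPM in the other 4, with a log2 difference of -2.80 (limma adjusted p = 0.0293). Without the muscle of sheep 132 this gene did not pass the filter, and its call was lost without any 1 of liver 98, liver 131 or liver 179. RXRG, a retinoid X receptor, stood at 20.6, 28.8, 0 and 17.1 CPM in liver, with no read in sheep 179, and at 30.3, 34.5, 28.9, 23.4 and 16.8 CPM in muscle. Its log2 difference of -1.63 was not called by limma (adjusted p = 0.119), was called with the sheep as a block (0.0300), and became -0.26 without the liver of sheep 179.

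For some genes the same sheep stood out in both tissues. Over the 4 shared sheep, 15 of 8028 genes at 5 CPM or more in both tissues had an SD of the log2 level over 1 in each tissue, and 9 of the 15 were highest in the same sheep in both. The latter was not counted over all 8028 genes, so whether it is particular to these 15 genes is not known. This set was picked after the values were seen and is a description. TPT1, a widely expressed protein of cell growth, stood at 7.09, 424, 13.3 and 6.74 CPM in liver and 47.6, 1046, 60.4, 39.4 and 37.5 CPM in muscle, high in sheep 131 alone. Its tissue difference was not called (limma adjusted p = 0.171) but was called with the sheep as a block (4.42e-06) and without the liver of sheep 131 (0.00659). RPL6, a ribosomal protein gene, stood at 5.72, 49.0, 6.26 and 4.63 CPM in liver and 4.44, 29.8, 4.45, 3.19 and 3.72 CPM in muscle, again high in sheep 131 alone. TMSB4X, the actin-binding peptide thymosin beta 4, stood at 1.24, 1.17, 39.9 and 27.2 CPM in liver and 1.19, 1.30, 0.890, 33.0 and 35.6 CPM in muscle, high in sheep 179 and 201. For these 3 genes the 2 tissues of a sheep fell on the same side. EEF1B2, a subunit of elongation factor 1, stood at 14.8, 7.31, 57.1 and 2.00 CPM in liver and 10.5, 5.18, 0.267, 39.5 and 1.09 CPM in muscle, with the same order of the 4 sheep in both. LOC114109396, an identifier without a symbol, stood at 30.2, 1.35, 65.6 and 1.16 CPM in liver and 34.5, 1.64, 48.9, 43.6 and 0.765 CPM in muscle, low in sheep 131 and 201 and high in the others. TPT1, RPL6, TMSB4X and EEF1B2 have near-identical copies elsewhere in mammalian genomes, so the counting could split their reads. FOS and NR4A1, immediate early genes that react within minutes to handling of cells, were also highest in sheep 131 among the 4 in both tissues, at 38.5, 75.1, 23.4 and 7.05 and 10.3, 31.6, 2.19 and 2.63 CPM in liver and 13.8, 81.5, 113, 61.8 and 24.9 and 33.4, 61.4, 21.3, 16.1 and 9.62 CPM in muscle.

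**Figure D5:**
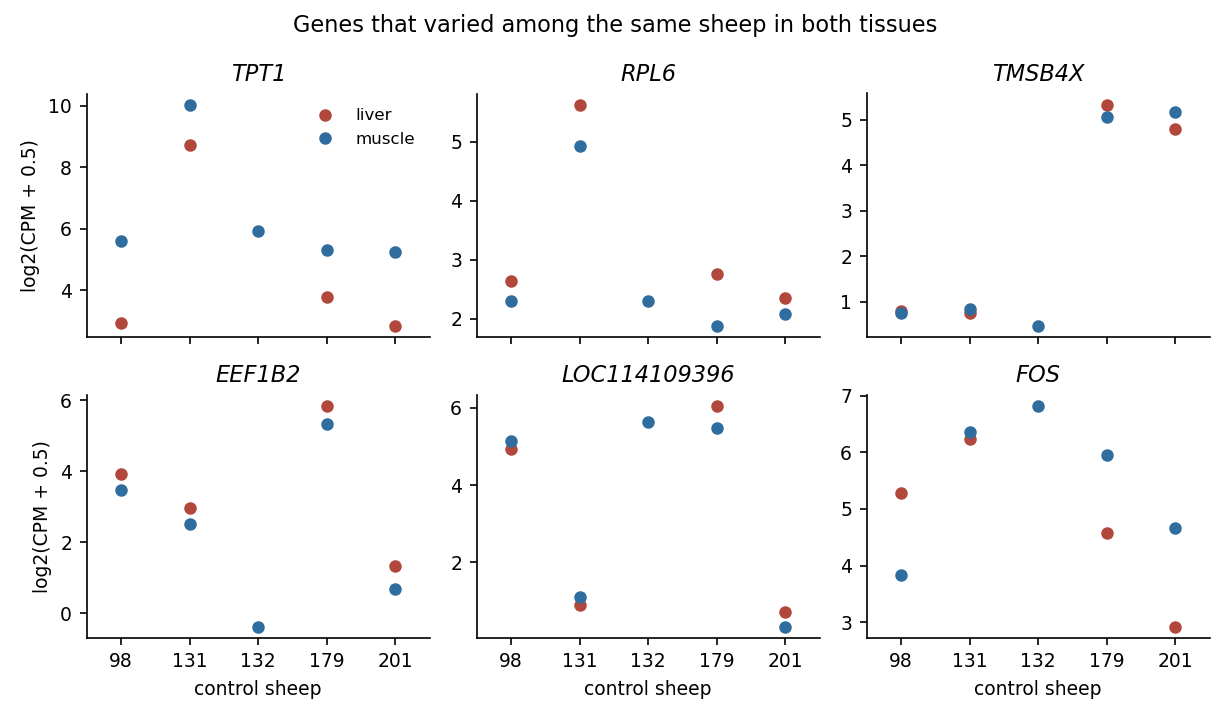
Level of 6 genes, as log2(CPM + 0.5), in liver (red) and muscle (blue) of each control sheep. Sheep 132 has a muscle library alone. TPT1 and RPL6 are high in sheep 131 in both tissues, TMSB4X in sheep 179 and 201, EEF1B2 in sheep 179, LOC114109396 in sheep 98 and 179, and FOS is highest in sheep 131 among the 4 with both tissues.

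The same tissue difference was measured in the treated sheep, which shared no library with the controls. Of 14032 genes tested there, 4765 (34.0%) were called higher in liver and 5106 (36.4%) higher in muscle. Of the 4953 genes higher in control liver, 4880 were tested in treated sheep and 4272 (87.5%) were called in the same direction and 1, CCDC154, in the opposite direction. Of the 4663 genes higher in control muscle, 4604 were tested and 4305 (93.5%) were called in the same direction and 0 in the opposite direction. A test of whether the tissue difference itself differed between treated and control sheep, in 1 limma fit of the 19 libraries, gave 2 genes of 13891 at an adjusted p under 0.05 and 774 at an unadjusted p under 0.05. With the sheep as a block, since 4 control and 5 treated sheep gave both tissues, limma gave 0 genes at an adjusted p under 0.05 and 826 at an unadjusted p under 0.05.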

How the data were processed

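The deposited values were a signal, the authors' normalized read counts for 28524 identifiers, scaled within each tissue as read from the values. Per the labels' protocols the libraries were made with a TruSeq kit, and the submitters' processing notes name Trimmomatic, STAR and featureCounts 1.6.1. The sources used here do not give the build or the strand setting. Each value was a whole multiple of 1 read (100% within 0.01 read). The recovered reads of 9 libraries were scaled together by TMM (edgeR 4.0.16) and tested with limma 3.58.1 in R 4.3.3 on log2(CPM + 0.5), with trend, no block, a mean of at least 1 CPM and Benjamini-Hochberg adjustment at 0.05. This test was chosen because the deposited unit is no count, and the log scale understates differences of low genes. The edgeR quasi-likelihood test on the reads called 5126 genes higher in liver and 4392 higher in muscle, and DESeq2 1.42.0 was a further alternative.

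Deviations from tissue means had a median r of 0.133 between the 2 tissues of the same sheep (range 0.0626 to 0.260, 4 pairs). Between different sheep the median was -0.0423 (range -0.237 to 0.119, 16 pairs), so the ranges overlapped. Deviations sum to 0 within a tissue, so positive values within sheep by themselves lower those between sheep. The pairing comes from the sheep numbers of the labels. Ratios against 1 to 3 reads carry 95% counting intervals, and floors of 3 reads cover counting error only. Members and gene lists were chosen with earlier results of these data known. Named genes were the markers, the 10 largest differences each way, in each list the 3 highest, the furthest in the other direction and the smallest difference, the paired forms, the extreme reference genes, the 5 largest SDs per tissue and 7 receptors. The others were singled out after their values were seen: OTC, G6PC1, GPT2, TAT, SHBG, SRD5A1, MSTN, LDHA, LDHB, BDH1, FASN, LEPR, IGF1, IGFBP1, IRS1, FOXO1, ADIPOQ, FOS, NR4A1, RPL6, SLC25A45, TMEM82 and LOC101102413, besides genes named without a value. Some genes that the rule names are not reported here. Gene names and biotypes came from an NCBI table of assembly ARS-UI_Ramb_v3.0. The fit was also run on simulated counts in which few genes differed, unlike these data. That run does not test the scaling or the fit where most genes differ.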

Additional observations from a re-analysis of the deposited data

Results flagged for a closer look

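Of 259 groups of a named gene and a tissue at a mean of 10 CPM or more, 17 (6.56%) had 1 library set apart from the others on the log2 scale by a gap that is large against the range. Chance alone gives about 1 in 20, but some of these genes were named for their spread or singled out after their values were seen, so the share cannot be read against it. In liver, sheep 131 stood apart low for TAT (258 CPM) and ROS1 (0.181 CPM) and high for TPT1 (424 CPM) and RPL6 (49.0 CPM). Sheep 179 stood apart low for MLXIPL (57.7 CPM) and RXRG (0 CPM) and high for PECAM1 (39.0 CPM), and sheep 98 stood apart high for ACACB (121 CPM). In muscle, sheep 131 stood apart high for TPT1 (1046 CPM) and LPL (178 CPM) and low for EEF1A1 (37.5 CPM) and ME1 (47.3 CPM). Sheep 201 stood apart low for ENO3 (1774 CPM) and LDHA (1475 CPM), sheep 132 low for MYH11 (9.88 CPM) and high for LOC101103165 (135 CPM), and sheep 98 high for VWF (157 CPM). Of 6 library values checked the same way, the number of genes with a read was set apart in the liver library of sheep 201, at 20704.

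The tissue difference of 2 genes differed between treated and control sheep by the interaction term of limma, but neither passed with the sheep as a block. TMEM82, a transmembrane protein gene, stood at 59.9, 51.0, 39.7 and 45.0 CPM in control liver and at 18.3, 40.4, 22.9, 33.1 and 25.3 CPM in treated liver. In muscle it stood at 2.93, 2.77, 2.58, 2.53 and 2.40 CPM in control sheep and at 7.43, 4.78, 6.50, 6.51 and 4.74 CPM in treated sheep. Control and treated libraries were scaled apart for these values, so levels close to each other cannot be ordered between the groups. For TMEM82 the liver ranges met, at 39.7 CPM in control and 40.4 CPM in treated sheep, and the muscle ranges lay apart. Its difference between liver and muscle was smaller in treated sheep by -1.82 ± 0.30 (SE) on the log2 scale (limma adjusted p = 0.0291, and 0.207 with the sheep as a block). SLC25A45, a mitochondrial carrier gene, stood at 6.71, 7.49, 7.99 and 5.68 CPM in control liver and at 1.08, 1.29, 0.490, 0.913 and 1.74 CPM in treated liver, with no read in 2 of 5 control and 2 of 5 treated muscles. Its difference was smaller by -2.30 ± 0.33 (SE) (limma adjusted p = 0.00789, and 0.207 with the sheep as a block). For SLC25A45 the lowest control liver, at 5.68 CPM, stood above the highest treated liver, at 1.74 CPM, on these separate scales.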

How the results depend on the processing

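With the sheep as a replicate block 4881 genes were called higher in liver and 4518 higher in muscle. At 4-fold or more the counts were 2397 and 1658. Among the named genes this fit changed the calls of AASS, PHKG2, PSMD6, RXRG and TPT1 and no other. In it the muscle of sheep 132, which has no liver library, adds nothing to the tissue difference. AASS and PHKG2 also lost their calls without muscle 132 and with no block (limma adjusted p 0.0544 and 0.052). The block, added here after seeing the data, also took the genes whose tissue difference differed between treated and control sheep from 2 to 0. No gene called with all libraries was called in the opposite direction under any alternative run. A minimum mean of 10 CPM left 2934 genes higher in liver (1504 at 4-fold or more), and at least 1 CPM in both tissues left 1195 genes higher in liver and 1056 higher in muscle at 4-fold or more, since fewer genes were tested. Library totals and upper quartiles as the scale shifted the median log2 difference of all genes by -0.12 and -0.10, and the share of calls higher in liver went from 51.5% to 47.7% and 48.0%. Leaving out 1 library gave 4631 to 5095 genes higher in liver and 4387 to 4895 higher in muscle. The median SD among livers, an alternative chosen after seeing the data, ran from 0.298 without sheep 179 to 0.514. Named genes were checked under the other scalings, the pseudocounts, the block, the loss of 1 library and edgeR. DESeq2, the other filters and the fit of 19 libraries were not checked for them. Of 189 named genes tested, 11 changed their call under at least 1 of the alternatives checked: AASS, GHR, LOC101103165, LOC114108618, NR4A1, PHKG2, PSMB2, PSMD6, RXRG, SNRPD3 and TPT1. NR4A1, higher in muscle, lost its call with edgeR (adjusted p = 0.124) and without any 1 of liver 179, liver 201, muscle 131, muscle 132 or muscle 98 (limma adjusted p 0.0523 to 0.127). The cause of these changes was not tested. A difference that was not called and changed sign while staying so was counted as unchanged. With no filter 22858 genes were tested, and depth limits those with few reads.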

Other observations

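Hormones and carriers that liver releases, the creatine and adenine nucleotide enzymes, the breakdown of branched-chain amino acids and the nuclear receptors of metabolism gave values that stand outside the comparisons above. Of 19 genes for secreted liver hormones and their carriers, 18 were tested and 17 were called higher in liver, with a median log2 difference of 7.36, and 7 reached 1 CPM in both tissues. AGT, the precursor of angiotensin, stood at 1527, 889, 741 and 1706 CPM in liver and was 1004-fold higher there, and RBP4, the plasma carrier of retinol, was 261-fold higher. ANGPTL4, an inhibitor of lipoprotein lipase that fasting raises in several tissues, was not called, at 133, 49.9, 52.7 and 169 CPM in liver and 57.1, 74.2, 95.8, 40.7 and 60.1 CPM in muscle. Of 8 genes of energy buffering and oxygen and acid handling in muscle, 7 were higher in muscle. CA3, a carbonic anhydrase of slow fibres, stood at 778, 1528, 587, 799 and 1422 CPM in muscle and 33.1, 199, 99.6 and 20.0 CPM in liver. CKB, the brain type of creatine kinase, was the 1 gene higher in liver, at 21.0, 16.6, 12.4 and 23.6 CPM against 2.06, 1.73, 5.96, 2.63 and 2.40 CPM.

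Of 18 tested genes of branched-chain amino acid breakdown, each at 1 CPM or more in both tissues, 10 were higher in liver, 3 were higher in muscle and 5 were not called, with a median of 0.89. BCKDHA, a subunit of the dehydrogenase that commits the branched-chain keto acids, was 4.12-fold higher in muscle, while MMUT, methylmalonyl-CoA mutase, which also serves propionate, was 4.20-fold higher in liver. Of 19 metabolic nuclear receptors, 4 were higher in liver and 11 in muscle. RORA, a receptor that drives clock genes, stood at 166, 145, 168, 204 and 308 CPM in muscle and 77.8, 71.1, 128 and 50.1 CPM in liver. NR2F1, an orphan receptor, was 6.41-fold higher in liver.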
